A study of Mus musculus with 8 samples.

Results

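Bone mineral is laid down by a small set of enzymes and transporters, and 7 of their genes are described here in 8 primary mouse osteosarcomas, malignant tumours of bone-forming cells. The genes were chosen by name: Alpl, Phospho1, Smpd3, Enpp1, Slc20a1, Slc20a2 and Ifitm5. Of these 7, 6 were measured, out of 19938 genes in all, each by 1 probe set, a group of short array probes read together. Enpp1 was not analysed here. Levels are log2 values from RMA (a robust average over an array's probes), made by the authors from 1 array per tumour, so a difference of 1 is a doubling of signal.

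Mineral forms when osteoblasts, the bone-building cells, raise the local supply of phosphate and remove pyrophosphate, which blocks crystal growth. The ectoenzyme encoded by Alpl, tissue-nonspecific alkaline phosphatase, splits pyrophosphate, which the product of Enpp1 makes from nucleotides outside the cell. Inside matrix vesicles, small sacs shed by osteoblasts and cartilage cells, the phosphatase encoded by Phospho1 frees phosphate from phosphocholine. Smpd3 encodes a neutral sphingomyelinase that yields phosphocholine from a membrane lipid. The sodium-coupled transporters encoded by Slc20a1 and Slc20a2 carry phosphate into cells. Ifitm5 encodes a small membrane protein of osteoblasts, mutated in a form of brittle bone disease.

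All 8 tumours came from C57Bl6 mice, and all carried a lesion of p53, so no tumour with intact p53 and no normal bone was compared. In the 4 shRNA OS tumours the p53 genotype was P53.1224, a hairpin transgene against p53, and in the 4 Cre:lox OS tumours it was P53fl/fl. Which promoter drove the hairpin or Cre, and the mice's ages and sexes, were not stated in the labels. Among shRNA OS tumours, replicates 1 to 3 grew in the tibia and replicate 4 in the humerus, and replicate 2 was Rb+/+ while the other 3 were Rbfl/+. Among Cre:lox OS tumours, replicate 1 (Rb+/+) grew in the scapula, replicate 2 in the humerus and replicates 3 and 4 in the tibia, the last 3 all Rbfl/+. Replicate numbers only name tumours and pair nothing.

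Precision was limited by the 8 arrays, whose medians ran from 7.13 to 7.23. One array, of shRNA OS replicate 2, correlated less with the others (mean Pearson's r 0.941) than the remaining 7 did (0.961 to 0.968). The label of bone tumour was checked on osteoblast markers: Col1a1, Col1a2, Ibsp and Sparc stood at the 99.8 percentile or higher on every array. Sp7 and Pth1r were lowest at the 78.1 and 82.1 percentiles. The markers Runx2, Spp1, Bglap and Bglap2 were not used here. In bulk tumour RNA, fewer cells of a type and less RNA per cell cannot be told apart.

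The 6 genes were bright, with mean levels between the 86.1 percentile of all probe sets for Slc20a2 and the 99.1 percentile for Alpl. They differed in how much they varied over the tumours. Smpd3 varied most, with an SD of 0.94 over the 8 tumours and a range of 2.83, and 97.8% of genes had a smaller SD. The SD was 0.67 for Phospho1, 0.59 for Ifitm5 and 0.55 for Slc20a1, and 0.34 for Alpl and 0.33 for Slc20a2, against a median of 0.27 over all genes. The plot of levels by tumour shows each value.

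**Figure D1:**
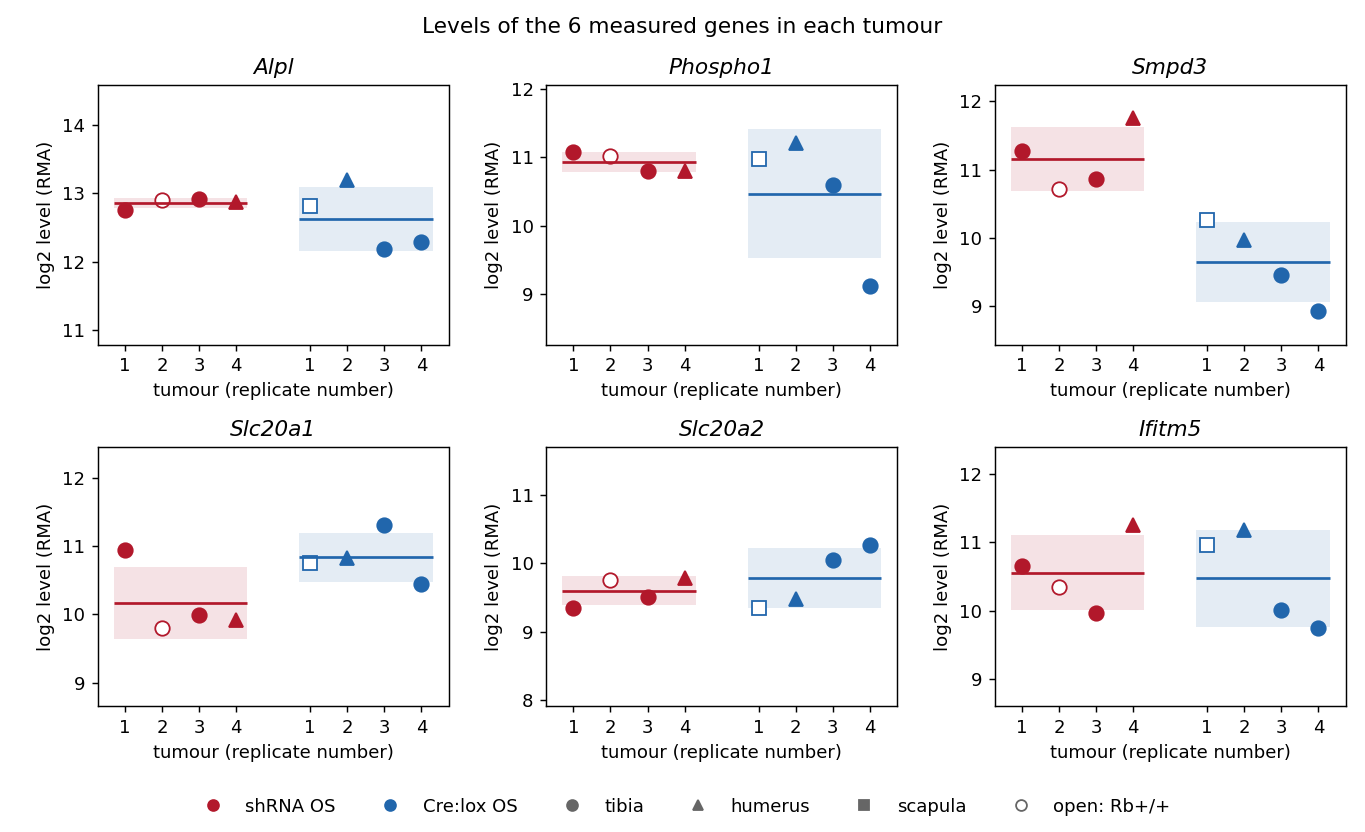
Log2 level (RMA, vertical axis) of each of the 6 genes in each tumour (horizontal axis, replicate number), with the line at the mean and the band at 1 SD of the 4 tumours of a model; every panel spans the same log2 range. Red is shRNA OS and blue Cre:lox OS, and symbols give the bone, with open symbols for Rb+/+. All 4 shRNA OS values of Smpd3, from 10.71 to 11.75, lie above all Cre:lox OS values, from 8.93 to 10.26, and Ifitm5 is highest in the 3 tumours outside the tibia.

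Between the 2 p53 models the sphingomyelinase gene Smpd3 differed most of the 6, with higher levels in shRNA OS. The levels of Smpd3 in shRNA OS were, by replicate, 11.28, 10.71, 10.86 and 11.75, and those in Cre:lox OS 10.26, 9.97, 9.46 and 8.93. The models did not overlap, and the lowest shRNA OS tumour lay above the highest Cre:lox OS tumour. The means were 11.15 ± 0.47 and 9.65 ± 0.58 (log2, SD, n = 4 each), a difference of 1.50 (SE 0.32, 95% interval 0.79 to 2.21). Smpd3 ranked 95 of 19938 genes by limma's p, with adjusted p = 0.184 over all genes, so it missed the threshold of 0.05. It was therefore a large difference in these tumours that was not called.

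Smpd3 was also lower in tibial tumours, by a log2 difference of -0.87 with the model as a covariate. That difference was not called (limma adjusted p = 0.646). With site (tibia or not) as a covariate the difference between models was 1.72 (SE 0.19, 95% interval 1.28 to 2.15), with limma adjusted p = 0.037. In that fit 13 genes (0.0652%) passed, 7 of them (0.0351% of all) higher in shRNA OS. The call did not hold under every omission of a single tumour. Leaving out each in turn, it held for 3 omissions, shRNA OS replicates 1 and 2 and the scapula tumour (adjusted p 0.0154 to 0.0398). Omitting shRNA OS replicate 3 or 4, or any one of Cre:lox OS replicates 2 to 4, ended the call (adjusted p 0.0766 to 0.128). The difference was 1.56 to 1.84 throughout. These omissions were chosen after the values were seen. In the order of levels, the shRNA OS tumour of the humerus stood at 11.75, the 3 tibial shRNA OS tumours at 10.95 ± 0.30 (SD), the 2 Cre:lox OS tumours of humerus and scapula at 10.11 ± 0.21, and the 2 tibial Cre:lox OS tumours at 9.19 ± 0.38. No neighbours in that order overlapped.

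The phosphate transporter genes had lower means in shRNA OS. Slc20a1, which encodes Pit-1, had shRNA OS levels of 10.95, 9.80, 9.99 and 9.92 by replicate, and Cre:lox OS levels of 10.75, 10.83, 11.31 and 10.45. Replicates 2 to 4 of shRNA OS lay below all Cre:lox OS tumours, and replicate 1 lay within their range. The means were 10.16 ± 0.53 and 10.83 ± 0.36 (SD, n = 4 each), a difference of -0.67 (SE 0.27, 95% interval -1.29 to -0.06, limma adjusted p = 0.467). Without shRNA OS replicate 1 the difference was -0.93 (adjusted p = 0.139). The paralogue Slc20a2, which encodes Pit-2, stood at 9.35, 9.75, 9.50 and 9.79 in shRNA OS and at 9.35, 9.47, 10.04 and 10.26 in Cre:lox OS. Its models overlapped, with a difference of -0.18 (95% interval -0.68 to 0.31, adjusted p = 0.866). It was 0.03 with array weights, -0.62 in only tibial tumours, and -0.33 to -0.02 leaving out each tumour.

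The phosphatase genes were even across shRNA OS and spread across Cre:lox OS. Alpl read 12.75, 12.90, 12.91 and 12.87 in the shRNA OS tumours by replicate, then 12.82, 13.19, 12.18 and 12.29 in the Cre:lox OS tumours. Its range was 0.16 in shRNA OS and 1.02 in Cre:lox OS, where replicates 3 and 4 were the lowest of all 8 tumours. The difference between models was 0.24 (SE 0.22, 95% interval -0.25 to 0.72, limma adjusted p = 0.809). It was 0.09 without Cre:lox OS replicate 3, 0.43 without replicate 2 and 0.62 in only tibial tumours.

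Phospho1 stood at 11.08, 11.02, 10.80 and 10.80 in the shRNA OS tumours by replicate, and at 10.97, 11.21, 10.59 and 9.11 in those of Cre:lox OS. Cre:lox OS replicate 4 was far below the other 7 tumours. The means were 10.93 ± 0.15 and 10.47 ± 0.94 (SD, n = 4 each), a difference of 0.46 (SE 0.39, 95% interval -0.42 to 1.34, adjusted p = 0.788). Without Cre:lox OS replicate 4 the means differed by 0.00 to 2 decimals, and in only tibial tumours by 1.12. Whether the spread differed between the models was not tested.

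Ifitm5 did not separate the models. By replicate its shRNA OS levels were 10.66, 10.35, 9.96 and 11.26, and its Cre:lox OS levels 10.96, 11.18, 10.01 and 9.74. High and low tumours were found in both models, and the difference was 0.08 (95% interval -0.75 to 0.91, limma adjusted p = 0.966). It took the other sign with array weights (-0.04) and without some tumours (down to -0.16). With site as a covariate it was 0.35 (95% interval -0.07 to 0.78, limma adjusted p = 0.573). It was 0.45 in only tibial tumours and 0.32 in only Rbfl/+ tumours.

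In the comparison of models 0 of the 6 genes passed limma's adjusted threshold, which 0.0201% of all genes passed. At an unadjusted p under 0.05, 1 of the 6 was higher in shRNA OS (Smpd3, against 3.61% of genes) and 1 lower (Slc20a1, against 6.02%). In either direction that is 2 of 6, against 9.63% of genes. The models did not overlap for 1 of the 6, Smpd3, against 5.44% of genes in either direction. The median difference was 0.16 over the 6 and 0.01 over all genes. The mean was higher in shRNA OS for 4 of the 6, and for 51.9% of all genes.

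Markers of other cells also differed in mean between the models, and their part in these results was not tested. Fibroblast markers had lower means in shRNA OS for 12 of 14 genes, with mean levels per tumour of 8.32 to 9.40 against 9.32 to 10.53. Macrophage markers were lower in mean for 14 of 14 (8.84 to 10.55 against 9.46 to 10.78) and skeletal muscle markers for 14 of 14 (7.21 to 10.51 against 7.76 to 10.27). At an unadjusted p under 0.05, 6 fibroblast, 1 macrophage and 1 chondrocyte marker were lower in shRNA OS, against 6.02% of all genes. In the other direction 3 chondrocyte, 2 endothelial and 1 osteoblast marker were higher, against 3.61%. Osteoblast markers other than Alpl were higher in mean for 4 of 6 (12.56 to 12.74 against 11.91 to 12.76). Chondrocyte markers, of interest because hypertrophic cartilage cells also use Alpl and Phospho1, were higher in mean for 10 of 14 (7.66 to 7.92 against 7.25 to 8.07). Osteoclast markers were higher in mean for 7 of 10 (8.65 to 11.28 against 9.50 to 11.09) and endothelial markers for 9 of 12 (9.29 to 9.73 against 8.80 to 9.82). Neutrophil markers were higher in mean for 9 of 13 (6.11 to 6.24 against 5.97 to 6.39) and plasma and B cell markers for 6 of 9 (7.30 to 7.69 against 7.13 to 7.52). No marker of these lists passed limma's adjusted threshold, and no value on this log2 scale was at 0.

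By bone, Ifitm5 differed most of the 6, with lower levels in tibial tumours. The 5 tibial tumours were at 10.66, 10.35, 9.96, 10.01 and 9.74, and the humerus and scapula tumours at 11.26, 11.18 and 10.96. Every tibial value lay below every other value. The means were 10.14 ± 0.36 (SD, n = 5) and 11.14 ± 0.15 (SD, n = 3). With the model as a covariate the difference was -1.09 (SE 0.20, 95% interval -1.53 to -0.64). Ifitm5 ranked 13 of 19938 genes by p, with limma adjusted p = 0.551, so it was not called. The difference stayed between -1.20 and -0.99 under the 18 alternatives, with adjusted p from 0.151 to 1.

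Tibial tumours also had lower means of Smpd3, Alpl and Phospho1. For Smpd3 the difference was -0.87 (SE 0.20, 95% interval -1.32 to -0.42), rank 56 by p and limma adjusted p = 0.646. Without regard to model its site groups overlapped: 10.25 ± 1.00 in 5 tibial tumours and 10.66 ± 0.96 in the other 3. Within each model the tibial tumours were all lower, by 0.80 on average in shRNA OS (3 tumours against 1) and by 0.92 in Cre:lox OS (2 against 2). Ifitm5 showed the same order within each model, by 0.94 and 1.20.

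For Alpl and Phospho1 the low values were those of the tibial Cre:lox OS tumours. Alpl averaged 12.23 ± 0.08 in these 2 tumours and 13.01 ± 0.26 in the other 2 of that model, while in shRNA OS the 3 tibial tumours averaged 12.85 ± 0.09 and the humerus tumour 12.87. Over both models the difference was -0.45 (SE 0.19, 95% interval -0.89 to -0.01, limma adjusted p = 0.867), with -0.29 when Cre:lox OS replicate 2 was omitted, but -0.77 when the shRNA OS humerus tumour was. For Phospho1 it was -0.64 (SE 0.38, 95% interval -1.50 to 0.23, adjusted p = 0.953). Single tumours moved it both ways, to -0.15 when Cre:lox OS replicate 4 was omitted, but to -1.24 when the shRNA OS humerus tumour was. Phospho1 averaged 9.85 ± 1.05 in the 2 tibial Cre:lox OS tumours and 11.09 ± 0.17 in the other 2. In shRNA OS it was not lower in the tibia, with 10.97 ± 0.15 in 3 tibial tumours and 10.80 in the humerus tumour. The site difference in shRNA OS minus that in Cre:lox OS was 0.75 for Alpl and 1.40 for Phospho1, with 95% intervals that include 0.

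The transporters did not share this order. Slc20a1 had a difference of 0.19 (95% interval -0.49 to 0.87) and Slc20a2 of 0.31 (95% interval -0.20 to 0.82), with limma adjusted p = 0.999 for both. Leaving out each tumour, these ran from 0.01 to 0.42 and from 0.16 to 0.74 (without shRNA OS replicate 4). Slc20a2 was higher in both tibial Cre:lox OS tumours (10.15 ± 0.16) than in the other 2 of that model (9.41 ± 0.09). In shRNA OS it was lower in all 3 tibial tumours (9.53 ± 0.20) than in the humerus tumour (9.79). The test of the difference between models, a site by model term in limma chosen after its values were seen, gave -1.0 (SE 0.34, 95% interval -1.78 to -0.22) with adjusted p = 1. At an unadjusted p under 0.05, 2.86% of all genes passed that term and 0 passed after adjustment.

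**Figure D2:**
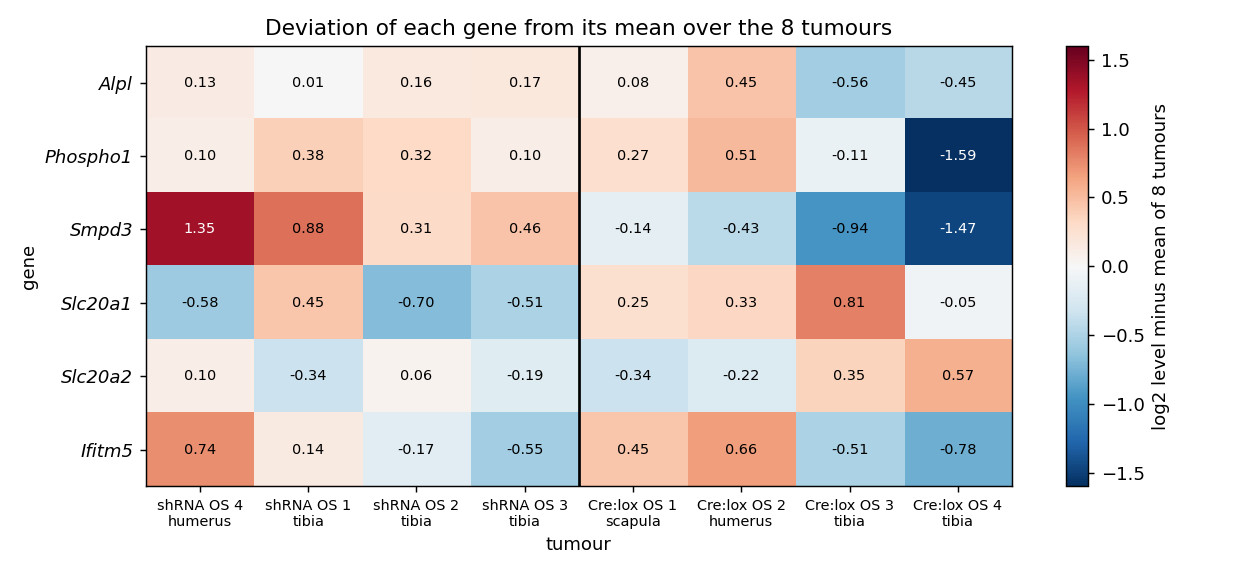
Deviation of each gene (rows) from its own mean over the 8 tumours, in log2 units given in each cell and by colour, with tumours (columns) ordered by model and bone. In the tibial Cre:lox OS tumours, the right columns, Alpl, Phospho1, Smpd3 and Ifitm5 are below their means and Slc20a2 is above its own (0.35 and 0.57).

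In the comparison of bones 0 of the 6 genes passed limma's adjusted threshold, as did 0 (0%) of all genes. At an unadjusted p under 0.05, 3 of the 6 were lower in tibial tumours (Ifitm5, Smpd3 and Alpl) and 0 higher, where 3.33% of all genes were lower and 2.32% higher. In either direction that is 3 of 6, against 5.64%. The bones did not overlap for 1 of the 6, Ifitm5, against 2.60% of genes in either direction. The difference with the model as a covariate was above 0 for 2 of the 6, Slc20a1 and Slc20a2, and for 44.5% of all genes. Without the covariate that of Slc20a1 was 0.00. The median difference was -0.54 over the 6 and -0.03 over all genes.

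Markers of cell types also differed by bone, and their part in these results was not tested. The counts are of the sign of the difference with the model as a covariate, and the ranges are of the list's mean level per tumour. Osteoblast markers other than Alpl were lower in tibial tumours for 6 of 6 genes, with levels per tumour of 11.91 to 12.69 against 12.70 to 12.76 outside the tibia. Osteoclast markers were lower for 9 of 10 (8.65 to 11.28 against 10.88 to 11.09) and endothelial markers for 11 of 12 (8.80 to 9.64 against 8.98 to 9.82). Higher values in tibial tumours were found for 13 of 14 macrophage markers (9.33 to 10.78 against 8.84 to 9.81), 13 of 14 fibroblast markers (9.12 to 10.53 against 8.32 to 9.49) and 14 of 14 skeletal muscle markers (7.21 to 10.51 against 7.76 to 10.13). At an unadjusted p under 0.05, 12 macrophage, 8 fibroblast, 2 plasma and B cell and 1 endothelial marker were higher, against 2.32% of all genes. In the other direction 1 osteoblast marker other than Alpl and 1 osteoclast marker were lower, against 3.33%. Neutrophil markers, of interest because granulocytes also carry alkaline phosphatase, were higher for 10 of 13 (6.11 to 6.39 against 5.97 to 6.13). Plasma and B cell markers were higher for 7 of 9 (7.39 to 7.69 against 7.13 to 7.37), and chondrocyte markers for 9 of 14 (7.25 to 7.92 against 7.54 to 8.07). Tibial Cre:lox OS replicates 3 and 4 had the lowest levels of all 8 tumours in osteoblast markers other than Alpl (12.28 and 11.91). They had the highest levels in fibroblast markers (10.21 and 10.53) and macrophage markers (10.7 and 10.78). The part of cell content in their low Alpl, Phospho1, Smpd3 and Ifitm5 levels was not tested. No marker passed limma's adjusted threshold.

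By Rb genotype no difference passed for any of the 6 genes. The 2 Rb+/+ tumours, shRNA OS replicate 2 and Cre:lox OS replicate 1, lay within the range of the 6 Rbfl/+ tumours for Alpl (12.90 and 12.82 against 12.18 to 13.19) and Phospho1 (11.02 and 10.97 against 9.11 to 11.21). With the model as a covariate the largest difference, Rbfl/+ minus Rb+/+, was -0.40 for Phospho1 (SE 0.46, 95% interval -1.43 to 0.64). It was 0.30 for Slc20a1, 0.19 for Slc20a2, -0.19 for Ifitm5, -0.16 for Alpl and -0.11 for Smpd3, with limma adjusted p from 0.862 to 0.954. At an unadjusted p under 0.05, 0 of the 6 passed, against 4.73% of all genes (3.09% higher and 1.64% lower in Rbfl/+), and after adjustment 0 (0%) of all genes passed. The genotypes overlapped for all 6, while 4.63% of genes did not overlap. The mean was higher in Rbfl/+ for 2 of the 6, and for 47.0% of all genes. The intervals are wide, and a 2-fold difference lies inside those of Phospho1, Ifitm5 (-1.20 to 0.83) and Slc20a1 (-0.42 to 1.02). One of the 2 Rb+/+ arrays was the one that stood apart, and without it the values of Smpd3, Phospho1 and Ifitm5 were -0.81, -0.67 and -0.65, and that of Slc20a2 0.57. These values rest on 1 Rb+/+ tumour, Cre:lox OS replicate 1, which was also the only scapula tumour, so genotype cannot be told from bone there. Leaving out each tumour, Phospho1 ran from -0.67 to -0.10 (without Cre:lox OS replicate 4), Alpl from -0.31 to -0.06 and Slc20a1 from 0.11 to 0.48.

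**Figure D3:**
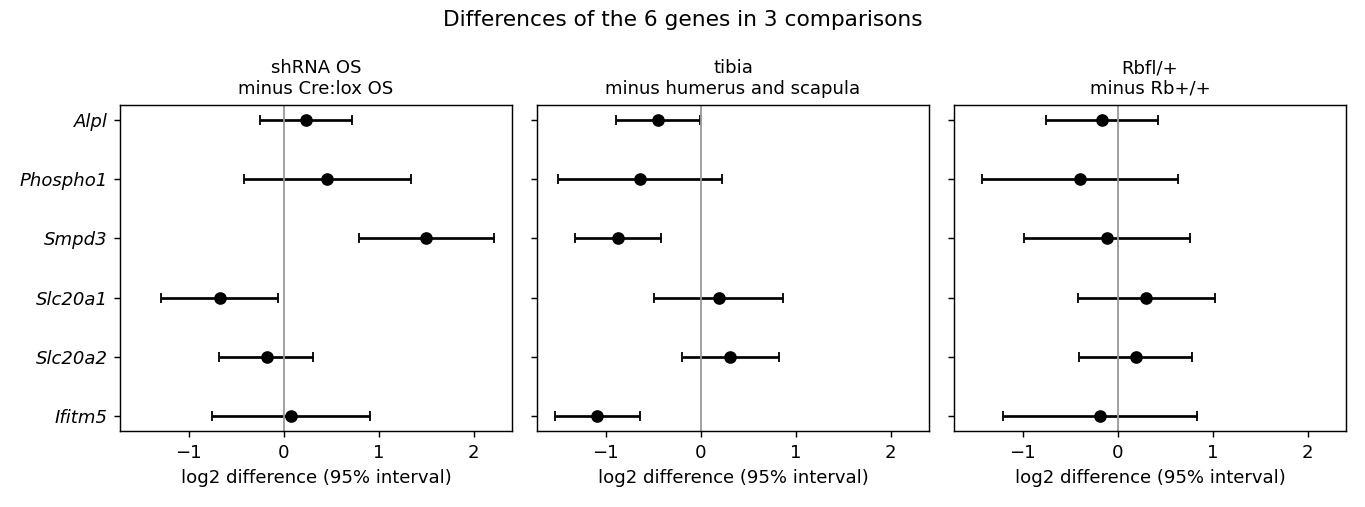
Log2 difference (horizontal axis, with its 95% interval from limma) of each gene (vertical axis) between models, bones and Rb genotypes, the last 2 with the model as a covariate. The intervals that do not include 0 are those of Smpd3 and Slc20a1 by model and of Alpl, Smpd3 and Ifitm5 by bone, and none of these passed after adjustment over 19938 genes.

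The start-site regions of Ifitm5, Alpl and Phospho1 are shown because these genes were below their means in both tibial Cre:lox OS tumours. The deviations in replicates 3 and 4 were -0.51 and -0.78 for Ifitm5, -0.56 and -0.45 for Alpl, and -0.11 and -1.59 for Phospho1. Ifitm5 was also lower in the tibial tumours of shRNA OS. The same Cre:lox OS tumours were lowest in osteoblast and highest in fibroblast and macrophage markers, and the cause of the low values was not tested. RefSeq's table (GRCm38.p6) held such a region for 5 of the 7 genes, not Smpd3 or Slc20a2. The 250 bases before the start are given 5′ to 3′ on the gene's strand, for Ifitm5 at chr7:140950244-140950493 (minus strand), for Phospho1 at chr11:95824250-95824499 (plus strand) and for the upstream of the 2 listed starts of Alpl at chr4:137796385-137796634 (minus strand). Capitals mark GGGCGG or its reverse complement CCGCCC, the GC box bound by Sp-family factors.
Ifitm5: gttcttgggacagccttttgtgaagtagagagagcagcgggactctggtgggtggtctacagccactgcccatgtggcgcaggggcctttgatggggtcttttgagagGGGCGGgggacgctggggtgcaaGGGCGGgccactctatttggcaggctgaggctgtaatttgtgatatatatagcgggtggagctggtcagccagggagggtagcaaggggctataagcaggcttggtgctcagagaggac
Phospho1: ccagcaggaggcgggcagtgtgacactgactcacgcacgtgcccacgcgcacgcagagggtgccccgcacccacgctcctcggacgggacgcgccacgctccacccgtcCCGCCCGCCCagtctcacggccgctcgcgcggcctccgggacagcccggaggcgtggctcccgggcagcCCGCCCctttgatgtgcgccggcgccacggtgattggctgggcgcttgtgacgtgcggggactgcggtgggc
Alpl: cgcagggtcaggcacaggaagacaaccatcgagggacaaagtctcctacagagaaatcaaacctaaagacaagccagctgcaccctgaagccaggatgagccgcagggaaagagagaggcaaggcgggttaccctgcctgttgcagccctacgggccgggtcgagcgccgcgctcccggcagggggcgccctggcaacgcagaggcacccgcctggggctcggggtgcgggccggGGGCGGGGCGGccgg
Ifitm5 held 2 GC boxes, Phospho1 3 (the first 2 overlapping) and Alpl 2 (overlapping by 1 base). Among 32851 listed regions of the same length, 32.7% held at least 1 and 16.7% at least 2. The other motifs searched on both strands were TGTGGT, the core read by RUNX factors (14.0% of regions), and TATAAA (12.4%), and these letters were not in the 3 windows. The GC content was 58.8% for Ifitm5, 75.6% for Phospho1 and 68.4% for Alpl, against a median of 52.4%. Of the windows not printed, that at the upstream start of Slc20a1, a gene not low in those tumours, held 2 GC boxes and 1 TGTGGT core. Its other start held 1 GC box, Enpp1 held 1 GC box and 1 TGTGGT core, and the other Alpl start held no GC box and 1 TATAAA. These matches describe letters in a window and show no binding. The array did not tell which start of Alpl was in use.

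Across the 8 tumours the levels of the 6 genes were related in 15 pairs, and none of the 15 passed after Benjamini-Hochberg adjustment. Phospho1 and Slc20a2 ran opposite, with Pearson's r = -0.813 (exact permutation p = 0.00501, adjusted 0.0751) and Spearman's rho = -0.786 (exact permutation p = 0.0279, adjusted 0.419). Without the 2 tumours farthest from the median of Phospho1, r was -0.741, and with each model's mean subtracted it was -0.794. Phospho1 and Ifitm5 had r = 0.644 (exact permutation p = 0.0237, adjusted 0.148) and rho = 0.667 (exact permutation p = 0.0831, adjusted 0.487), with r = 0.379 without the 2 tumours farthest in Phospho1. Alpl and Phospho1 had r = 0.702 (exact permutation p = 0.0394, adjusted 0.148) and rho = 0.571 (exact permutation p = 0.151, adjusted 0.487). The r of Alpl and Phospho1 was 0.455 without the 2 tumours farthest in Alpl, and -0.664 among the 4 shRNA OS tumours against 0.687 among the 4 Cre:lox OS tumours, too few to test. Alpl and Slc20a2 had r = -0.749 (exact permutation p = 0.0311, adjusted 0.148), which rested on the 2 tumours farthest in Alpl (0.11 without them), and rho = -0.381 (exact permutation p = 0.36, adjusted 0.487).

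Smpd3 and Ifitm5 ordered the tumours more alike within each model than over both. Over all 8 tumours r was 0.542 (exact permutation p = 0.167, adjusted 0.251) and rho 0.50 (exact permutation p = 0.216, adjusted 0.487). With each model's mean subtracted, r was 0.916, the largest in size of the 15 pairs by that measure. It was 0.909 among shRNA OS and 0.92 among Cre:lox OS tumours, given as a description with no test. Without the 2 tumours farthest in Smpd3, the pooled r was -0.0362. Other pairs reached such sizes within a model. Among Cre:lox OS tumours r was -0.981 for Smpd3 and Slc20a2, -0.97 for Slc20a2 and Ifitm5, and 0.948 for Alpl and Ifitm5. Among shRNA OS tumours it was -0.967 for Alpl and Slc20a1.

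**Figure D4:**
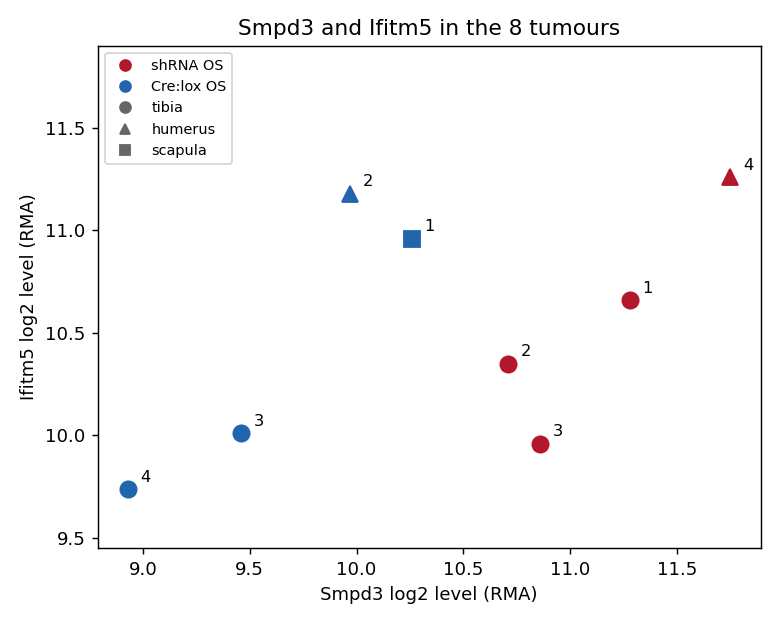
Log2 level of Smpd3 (horizontal axis) against that of Ifitm5 (vertical axis) in the 8 tumours, labelled by replicate number, with colour for the model and symbol for the bone. In each model the tumours outside the tibia are highest in Ifitm5 and in Smpd3, and the shRNA OS tumours lie to the right (10.71 to 11.75) of the Cre:lox OS tumours (8.93 to 10.26).

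The genes most alike in pattern over the 8 tumours, by Pearson's r among all genes, were B4galnt3 and Zfp580 for Smpd3 (0.988 each), with rho of 1.0 and 0.976. For Ifitm5 they were B9d1os (0.97) and Miga2 (0.961), for Alpl Senp6 (0.978) and Hyal2 (0.968), and for Phospho1 Syngr4 (0.986) and Tbrg1 (0.983). Slc20a1 was followed by Rps19bp1 (0.979) and Gfpt2 (0.978), and Slc20a2 by Kcnh1 (0.936) and Tef (0.931). By rank some were less alike, with rho of 0.762 for Senp6, 0.786 for Kcnh1, 0.81 for Tbrg1 and 0.857 for Syngr4. For the others named after Smpd3's, rho was 0.929 to 0.976. Syngr4 (6.67 to 7.1), B9d1os (6.74 to 7.17) and Kcnh1 (6.46 to 7.19) were dim and varied little. With 8 tumours and 19938 genes such r values are common: an r above 0.9 was reached by 12 genes for Slc20a2 and by up to 70 for Slc20a1. The points share the models, so these values describe likeness only.

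Pyrophosphate and extracellular nucleotide enzymes and transporters, the partners of Alpl and Enpp1, had 14 of 15 listed genes measured. Of the 14, 0 passed limma's adjusted threshold between models, 5 means were higher and 9 lower for shRNA OS, and 2 were higher and 2 lower at an unadjusted p under 0.05, which 3.61% and 6.02% of all genes reached. Nt5e, the ectoenzyme that makes adenosine from AMP, was at 8.17 ± 1.08 against 10.66 ± 0.62 (SD, n = 4 each), a difference of -2.49 (SE 0.50, limma adjusted p = 0.163), with no overlap. Entpd5, a nucleoside diphosphatase, differed by -0.60 (adjusted p = 0.261), also with no overlap. Ank, chosen for naming once its values were known, acts in the export of pyrophosphate or its precursor and was higher in mean by 1.02 (adjusted p = 0.342). By bone 0 of the 14 passed. At an unadjusted p under 0.05, 2 were higher and 1 lower in tibial tumours (all genes, 2.32% and 3.33%). The lower was Enpp6, a choline phosphodiesterase, which differed by -0.95 (SE 0.25, adjusted p = 0.672), with bones that overlapped.

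The enzymes of phosphocholine and sphingomyelin metabolism, which supply or use the substrates of Phospho1 and Smpd3, had 20 of 22 genes measured. Between models 0 passed limma's adjusted threshold, and 0 were higher and 3 lower in shRNA OS at an unadjusted p under 0.05 (all genes, 3.61% and 6.02%). Etnk1, ethanolamine kinase, differed by -0.42 (adjusted p = 0.466) and Pcyt1a, the rate-limiting enzyme of phosphatidylcholine synthesis, by -0.35 (adjusted p = 0.495). By bone 0 passed and 2 were lower at an unadjusted p under 0.05 (all genes, 3.33%). Sgms2, a sphingomyelin synthase whose human counterpart is mutated in a bone fragility disorder, differed by -0.89 in tibial tumours (SE 0.27, adjusted p = 0.697). The median difference by model was -0.06 over the 20.

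Other phosphate carriers were close to even, though some were dim. Of 12 measured, 0 passed limma's adjusted threshold and 0 reached an unadjusted p under 0.05 between models or bones. The all-gene shares at that unadjusted threshold were 9.63% between models and 5.64% between bones. Lowest in p between models were Slc34a2, with a log2 difference of 0.20 (limma adjusted p = 0.767), and Slc17a2, with one of 0.19 (adjusted p = 0.807). Both were dim, at 5.69 against 5.49 for Slc34a2 and 5.65 against 5.46 for Slc17a2. These means lie below the array medians (7.13 to 7.23), and even readings at such levels say little about a gene. Lowest in p between bones was Slc37a2, with a log2 difference of -0.72 (adjusted p = 0.952). Relatives of Alpl and Ifitm5 were likewise even, and some were dim: of 9 measured, 0 passed and 0 reached an unadjusted p under 0.05 in either comparison. Ifitm6 differed by -0.29 and Ifitm2 by 0.21 between models (adjusted p 0.607 and 0.778). The first was dim, at 5.76 against 6.04, and the second bright, at 11.84 against 11.63. Ifitm1 differed by -0.42 between bones (adjusted p = 0.943). Ifitm genes resemble each other in sequence, and a probe set for one may also read another.

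Among mineral-binding and matrix vesicle proteins 10 of 14 genes were measured and 0 passed limma's adjusted threshold in either comparison. The median difference was 0.03 between models and -0.23 between bones. At an unadjusted p under 0.05, 2 were higher and 1 lower in shRNA OS (all genes, 3.61% and 6.02%). In tibial tumours 1 was higher and 1 lower (all genes, 2.32% and 3.33%). Anxa2, an annexin of matrix vesicles, differed by -0.63 between models (SE 0.17, adjusted p = 0.248) with no overlap. Phex, a peptidase of phosphate balance, differed by 3.32 (adjusted p = 0.192), also with no overlap (11.64 ± 0.39 against 8.32 ± 1.75, SD). Mepe, a matrix phosphoglycoprotein, differed by -1.02 in tibial tumours (adjusted p = 0.697). It was dim, at 6.30 ± 0.44 in the tibia and 7.24 ± 0.60 elsewhere (SD), near or below the array medians (7.13 to 7.23). Of 8 measured osteoblast transcription factors 0 passed between models, and 4 were higher and 0 lower at an unadjusted p under 0.05 (3.61% and 6.02% of all genes). Dlx6 and Dlx5, homeobox factors of bone formation, were higher in mean by 1.38 (SE 0.26, adjusted p = 0.138) and 1.20 (adjusted p = 0.394) in shRNA OS. The models did not overlap for Dlx6 and overlapped for Dlx5. By bone 0 passed, and Dlx5 differed by -0.97 (adjusted p = 0.758).

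**Figure D5:**
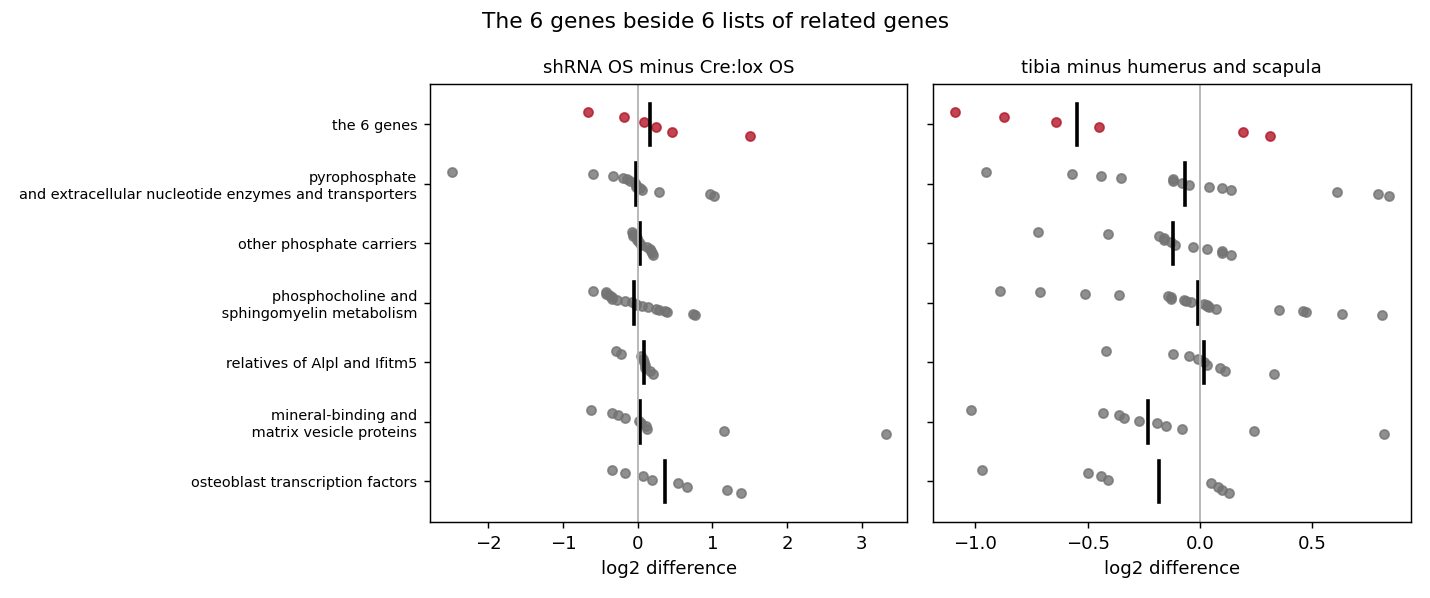
Log2 difference (horizontal axis) of each gene, by list (vertical axis), between models (left) and bones (right), with the black bar at the median; red points are the 6 genes and grey points the related lists. Between bones the median of the 6 is -0.54, against medians from -0.23 to 0.02 in the 6 lists. The cell type marker lists are not drawn. Their medians between bones ran from -1.12 (osteoclast) to 1.18 (macrophage), with -0.27 for osteoblast markers other than Alpl, so low tibial values were not particular to the 6.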

How the data were processed

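RNA of 8 tumours was hybridised to 1-colour arrays, 1 per tumour. The authors deposited log2 values made with RMA, per the submitters' processing notes; mm9 is the build named. No software version or filter was stated there. The interquartile range differed between arrays (2.59 to 3.19), which can enter every difference. Of 35556 probe sets 21789 had 1 gene symbol in the platform annotation. The highest-mean probe set per gene was used, which gave 19938 genes. Groups came from the labels, which give each tumour its own number. Limma's p-values set a difference against the spread between tumours, moderated over all genes.

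Differences were tested with limma 3.58.1 (lmFit, eBayes) in R 4.3.3 over all genes, Benjamini-Hochberg adjusted, with a threshold of 0.05 and no filter on dim genes. Bone and Rb genotype had the model as a covariate. Relations used exact 2-sided permutation in Python 3.11.15. The fits were tested on simulated data. Promoter regions and gene names came from RefSeq (GRCm38.p6).

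The 7 genes, the lists and the tests were chosen with earlier results of these data known. The named genes are the 7, the 2 genes of smallest p between models and the 1 between bones in each related list, and the 2 most alike in pattern, without predicted genes, Y-linked genes and Xist. As alternatives, arrays were quantile normalized or centred on medians, dim genes removed at 2 levels, probe sets averaged, and limma run by eBayes with trend and robust, array weights, other covariates, only Rbfl/+ or tibial tumours, or without each tumour.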

Additional observations from a re-analysis of the deposited data

Results flagged for a closer look

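In a group of 4 to 10 tumours, the highest or lowest value was set apart where its gap to the next was large for the group's range by Dixon's criterion, a criterion that about 1 group in 20 meets by chance. It was met in 7 of 40 cases over the 6 genes and 4 array measures, many of which share tumours.

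Phospho1 in Cre:lox OS replicate 4, at 9.11, was far below the next lowest tumour (10.59) among the 5 tibial and among the 6 Rbfl/+ tumours. Slc20a1 in shRNA OS replicate 1, at 10.95, was far above the other 3 shRNA OS tumours (9.80 to 9.99). The array of shRNA OS replicate 2 had the lowest mean Pearson (0.941) and rank (0.934) correlation with the other 7, among the shRNA OS and among the tibial tumours. Slc20a2 was lower in every tibial tumour of shRNA OS and higher in every tibial tumour of Cre:lox OS, a difference of -1.0 between the models' site differences that did not pass limma's test (adjusted p = 1).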

How the results depend on the processing

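Of the 6 genes, 0 passed in any comparison under the alternatives listed above, except Smpd3 between models with site as a covariate, where 1 passed. The count of genes called between models, 4, was 20 with quantile normalization, 9 with median centring, 19 with array weights, 13 with site as a covariate, 9 in only Rbfl/+ tumours and 2 in only tibial tumours. It was 0 among genes above the median level (1351 at an unadjusted p under 0.05), and 0 to 42 leaving out each tumour. Between bones the count of 0 was 0 to 1 leaving out each tumour, and between Rb genotypes it was 0 throughout. Small differences changed sign. Between models, with array weights, Slc20a2 was 0.03 and Ifitm5 -0.04, and leaving out each tumour Ifitm5 ran from -0.16 to 0.32. Between Rb genotypes Smpd3 was 0.04 with array weights, 0.04 with model and site as covariates and 0.36 in only tibial tumours, with a range of -0.81 to 0.59 leaving out each tumour. Ifitm5 was 0.06 with array weights (-0.65 to 0.28 leaving out each tumour), and Slc20a2 was -0.32 in only tibial tumours (-0.20 to 0.57). The cause was not tested. Between Rb genotypes, the fits in only tibial tumours or without an Rb+/+ tumour left 1 Rb+/+ tumour. No paired analysis was possible because the labels number each tumour separately.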
